A study of Mus musculus with 2 samples.

Results

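The homing and egress set described here comprises 4 mouse genes: Ccr7, S1pr1, S1pr4 and Klf2. They are 4 of the 27775 gene names on the array and were chosen by name, as the probes whose gene name in the scanner files is one of these symbols or an older alias (Edg1 for S1pr1, Edg6 for S1pr4), which gave 5 of the 41174 different probes on the array: 1 each for Ccr7, S1pr1 and S1pr4, and 2 for Klf2. Both populations were sorted from the spleen of C57BL/6 mice: CD8+CD122+ cells, which the series calls regulatory T cells, and CD8+CD122- cells, the remaining CD8+ cells. CD122 is a chain that the interleukin 2 and interleukin 15 receptors share. Amplified mRNA from each population was cohybridised to 2 two-colour Agilent arrays. On array 1 the CD8+CD122+ sample was labelled with Cy5 and the CD8+CD122- sample with Cy3, and array 2, named a second trial, had the dyes exchanged. Neither age nor sex of the mice is given in the labels, nor whether animals were pooled or the second trial used new mice, so the spread between the 2 arrays may be technical. Array, trial and dye orientation change together and cannot be told apart.

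Naive and central memory T cells enter lymph nodes through high endothelial venules. CCR7 reads the chemokines CCL19 and CCL21 displayed there, and activated integrins arrest the cells on the vessel wall. They leave again by following sphingosine 1-phosphate, which is plentiful in blood and lymph and scarce inside the tissue, through the receptor S1PR1. CD69 pulls S1PR1 off the cell surface and so holds activated or resident cells in place. S1PR4 is a related lymphocyte receptor for the same lipid. KLF2, a zinc finger transcription factor of quiescent T cells, keeps S1pr1 switched on and is itself driven by FOXO1.

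KLF factors bind CACCC boxes and FOXO factors bind a TGTTTAC core, so the 250 bases before the start of 2 of the 4 genes, those for which RefSeq sequence (GRCm38.p6) was at hand, are shown with their matches. The S1pr4 window lies at chr10:81500138-81500387 on the minus strand and the Klf2 window at chr8:72318812-72319061 on the plus strand. Both are written 5′ to 3′ along the gene, and the capitals mark GGGTGG, the reverse complement of CCACCC.
S1pr4 promoter: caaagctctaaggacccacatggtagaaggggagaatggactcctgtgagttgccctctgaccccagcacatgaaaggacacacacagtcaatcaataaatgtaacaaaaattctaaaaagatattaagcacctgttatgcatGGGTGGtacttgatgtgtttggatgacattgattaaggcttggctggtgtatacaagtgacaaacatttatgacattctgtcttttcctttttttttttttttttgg
Klf2 promoter: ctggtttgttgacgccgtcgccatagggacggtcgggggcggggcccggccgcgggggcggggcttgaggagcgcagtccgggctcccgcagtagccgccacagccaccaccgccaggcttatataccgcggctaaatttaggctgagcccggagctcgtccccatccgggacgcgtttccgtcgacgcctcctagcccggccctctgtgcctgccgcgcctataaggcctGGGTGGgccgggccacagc
The match in S1pr4 covers bases 107 to 102 before the start, and that in Klf2 bases 19 to 14 before it. CCACCC, searched on both strands, was present in 9223 of 32851 promoter windows of the same length (28.1%), and TGTTTAC in 1040 (3.17%). TGTTTAC was not among the letters of either window. These matches describe sequence alone, and the arrays carry no measurement of binding.

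Across the array, 30794 probes entered the test, each clearly brighter than background on both arrays for 1 population or both. Between 69.5% and 83.4% of spots per channel were well above background. Il2rb, which encodes CD122, had log2 ratios of CD8+CD122+ over CD8+CD122- of 2.60 on array 1 and 2.34 on array 2 (2.47 ± 0.18, SD, n = 2; 5.56-fold higher; limma adjusted p = 0.264), so the sort marker ran the labelled way on both arrays. All 7 CD8 T cell markers stood well above background in either population on each array, and the brightest Cd8a probe had log2 ratios of -0.31 and -0.91, and the brightest Cd8b1 probe -0.48 and -0.86. B cell markers were well above background in CD8+CD122+ cells for 7 of 7 genes and in CD8+CD122- cells for 6 of 7, at summed spot signals of 1041 to 1090 in CD8+CD122+ cells and 1045 to 1421 in CD8+CD122- cells. NK cell markers were so for 5 of 6 genes in CD8+CD122+ cells and 4 of 6 in CD8+CD122- cells, with Ncr1 not well above background in either population. Myeloid and dendritic cell markers were so for 9 of 10 genes in CD8+CD122+ cells and 7 of 10 in CD8+CD122- cells, at summed spot signals of 1815 to 2213 in CD8+CD122+ cells and 1603 to 2654 in CD8+CD122- cells. CD4 T cell markers were so for 2 of 3 genes in CD8+CD122+ cells and 1 of 3 in CD8+CD122- cells. Only 2 of 5 NKT and gamma-delta T cell markers were on the array, and 1 was so in each population. In both populations erythroid and platelet markers were so for 3 of 7 genes, stromal and endothelial ones for 3 of 6 and neutrophil ones for 0 of 4. Their part in the results was not tested. Ratios of all probes correlated between the arrays with a Pearson r of 0.38 and a Spearman rho of 0.11, a description across probes of the same hybridisations. With 2 arrays limma called 0 of the 30794 probes at an adjusted p under 0.05 (0% of probes), and 1884 had an unadjusted p under 0.05 (6.12%).

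None of the 4 homing and egress genes passed the test between CD8+CD122+ and CD8+CD122- cells. Under loess normalisation Ccr7, S1pr1 and the Klf2 probe A_51_P144264 were lower in CD8+CD122+ cells on array 1 and higher on array 2, S1pr4 ran the other way, and the Klf2 probe A_52_P442031 was close to even on both; with median centring S1pr1 was lower on both arrays and both Klf2 probes took other patterns. All 5 probes stood well above background in either population on each array, none was saturated, and limma called 0 of them at an adjusted p under 0.05; 0 also reached an unadjusted p under 0.05. In bulk RNA of this kind, fewer cells expressing a gene and less RNA of it per cell cannot be told apart.

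Ccr7 encodes the receptor that guides T cells into lymph nodes. Its processed signal, the scanner software's background-subtracted and dye-normalised intensity, was 14854 in CD8+CD122+ cells and 28768 in CD8+CD122- cells on array 1. On array 2 it was 30900 in CD8+CD122+ cells and 15225 in CD8+CD122- cells. Each population was thus the higher on 1 array and the lower on the other, and the higher signal was the Cy3 one both times.

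After normexp background correction and loess, the log2 ratio of Ccr7 was -0.92 on array 1, 1.89-fold lower in CD8+CD122+ cells, and 0.97 on array 2, 1.96-fold higher. The mean was 0.03 ± 1.33 (SD, n = 2), with a limma adjusted p of 0.995. Its 95% interval ran from -1.77 to 1.82 on the log2 scale and so holds a 2-fold difference in either direction. The 2 arrays lay 1.89 log2 units apart, a gap that 0.104% of probes reached. The spot signals before any correction stood in the same order, at 1150 in CD8+CD122+ cells and 1543 in CD8+CD122- cells on array 1, and at 2003 in CD8+CD122+ cells and 1611 in CD8+CD122- cells on array 2.

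S1pr1 encodes the receptor by which T cells follow sphingosine 1-phosphate out of lymphoid tissue. Its processed signal was 9410 in CD8+CD122+ cells and 15923 in CD8+CD122- cells on array 1, and 15162 in CD8+CD122+ cells and 12696 in CD8+CD122- cells on array 2. The order of the populations again turned over between the arrays, though array 2 was nearer to even. The log2 ratios were -0.71 and 0.22, with a mean of -0.25 ± 0.66 (SD, n = 2; 95% interval -1.14 to 0.65; limma adjusted p = 0.931). That interval holds a 2-fold lower level in CD8+CD122+ cells and no 2-fold higher one. It rests on a spread shared across probes, so a 2-fold higher level is not excluded. Before correction the S1pr1 spots read 744 in CD8+CD122+ cells and 901 in CD8+CD122- cells on array 1, and 1027 in CD8+CD122+ cells and 1357 in CD8+CD122- cells on array 2. These uncorrected signals, which carry no adjustment between the dyes, were lower in CD8+CD122+ cells both times, unlike the processed signals of array 2.

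S1pr4 is the second sphingosine phosphate receptor of the set. Its processed signal was 1383 in CD8+CD122+ cells and 1308 in CD8+CD122- cells on array 1, and 1429 in CD8+CD122+ cells and 2519 in CD8+CD122- cells on array 2. On array 1 the populations were close together, and on array 2 the CD8+CD122- signal stood above the CD8+CD122+ one. The uncorrected spots stood in the same order, at 163 in CD8+CD122+ cells and 151 in CD8+CD122- cells on array 1 and at 184 in CD8+CD122+ cells and 327 in CD8+CD122- cells on array 2. The log2 ratios were 0.07 and -0.59, with a mean of -0.26 ± 0.46 (SD, n = 2; 95% interval -0.91 to 0.39; limma adjusted p = 0.911). A 2-fold difference in either direction lies outside that interval. With 1 residual degree of freedom the interval rests on a spread shared across probes, so it does not exclude such a difference. On the processed signals the log2 ratio of array 2 was -0.82.

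Klf2 was read by 2 probes of 60 bases, A_51_P144264 and A_52_P442031, of which the first lies 1274 bases downstream of the second by the array's own annotation. For A_51_P144264 the processed signal was 147606 in CD8+CD122+ cells and 226474 in CD8+CD122- cells on array 1. On array 2 it was 229766 in CD8+CD122+ cells and 169977 in CD8+CD122- cells. In these dye-normalised signals Cy3 stood above Cy5 on both arrays, as for Ccr7 and S1pr1. The uncorrected spots had the opposite order on both arrays, at 11710 in CD8+CD122+ cells and 10739 in CD8+CD122- cells on array 1, and at 14338 in CD8+CD122+ cells and 17172 in CD8+CD122- cells on array 2.

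The log2 ratios of that probe were -0.62 and 0.46, with a mean of -0.08 ± 0.76 (SD, n = 2; 95% interval -1.11 to 0.95; limma adjusted p = 0.977). The second probe, A_52_P442031, had processed signals of 47692 in CD8+CD122+ cells and 50200 in CD8+CD122- cells on array 1, and of 89617 in CD8+CD122+ cells and 94395 in CD8+CD122- cells on array 2. Its uncorrected spots read 3644 in CD8+CD122+ cells and 2565 in CD8+CD122- cells on array 1, and 5644 in CD8+CD122+ cells and 9575 in CD8+CD122- cells on array 2, with Cy5 above Cy3 both times. After loess its log2 ratios were -0.08 and -0.07, with a mean of -0.07 ± 0.0058 (SD, n = 2; 95% interval -0.26 to 0.12; limma adjusted p = 0.911). That interval too rests on a spread shared across probes, so it does not exclude a larger difference. With median centring the ratios of A_52_P442031 were 0.41 and -0.54. Under loess the probes of the same transcript thus had nearly the same mean and different spreads: the arrays lay 1.07 log2 units apart on A_51_P144264, a gap reached by 1.27% of probes, and 0.0082 apart on A_52_P442031, which 96.0% of probes exceeded or matched.

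**Figure D1:**
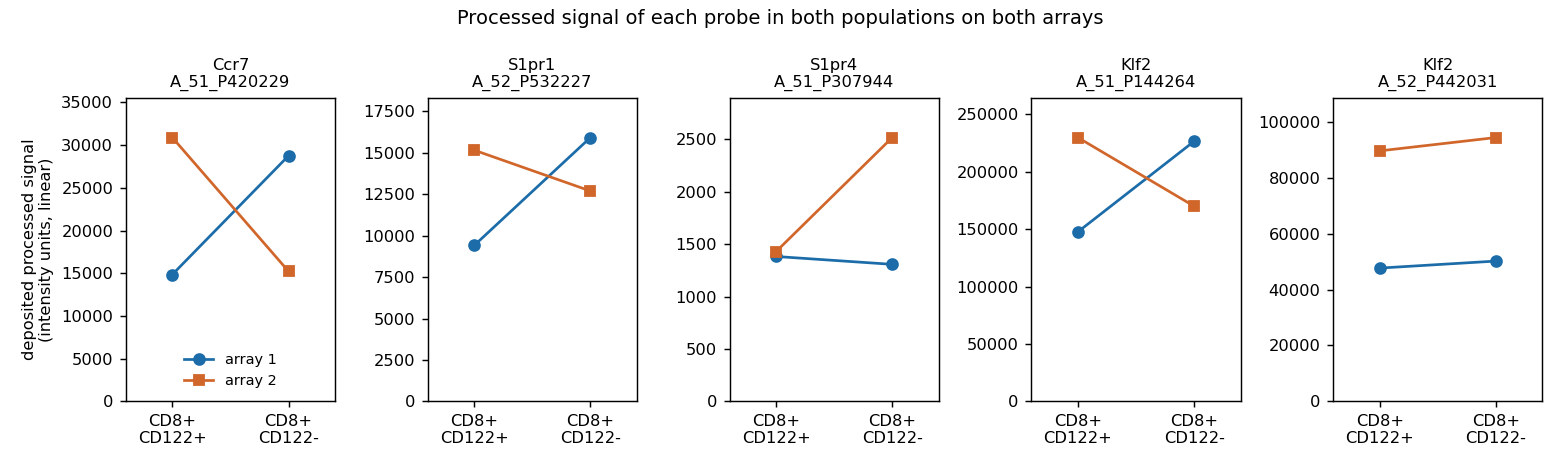
Deposited processed signal (linear intensity units, vertical axes from 0) of the 5 probes in CD8+CD122+ cells (left) and CD8+CD122- cells (right), with 1 line per array. The lines cross for Ccr7, S1pr1 and Klf2 A_51_P144264 and run nearly level for Klf2 A_52_P442031, whose signals on array 2 (89617 in CD8+CD122+ cells and 94395 in CD8+CD122- cells) lie above those on array 1.

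Counted by direction, 0 of the 5 probes were higher on both arrays in CD8+CD122+ cells, against 27.8% of all probes, and 1 was lower on both, against 25.6%. The other 4 changed sign between the arrays, as did 46.6% of all probes. Turned into Cy5 over Cy3, 3 of the 5 probes (Ccr7, S1pr1 and Klf2 A_51_P144264) were lower in Cy5 on both arrays under loess, against 22.4% of all probes, with mean log2 Cy5 over Cy3 ratios of -0.94, -0.46 and -0.54; under median centring 1 was, Ccr7, against 19.3%. S1pr4 was higher in Cy5 on both arrays under loess, against 24.2% of all probes, at a mean of 0.33. Under median centring S1pr4 and both Klf2 probes were higher in Cy5 on both arrays. The share of all probes was not counted for that direction and setting. Under loess Ccr7 was at least 1.5-fold lower in Cy5 on both arrays, which 24 of the 30794 probes were (0.0779%), but it was under 1.5-fold on both with median centring, where 3 probes passed (0.00974%). At least 2-fold on both arrays in the same direction between the populations, 78 probes were higher in CD8+CD122+ cells (0.253%) and 25 lower (0.0812%), and 0 of the 5 were among them.

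**Figure D2:**
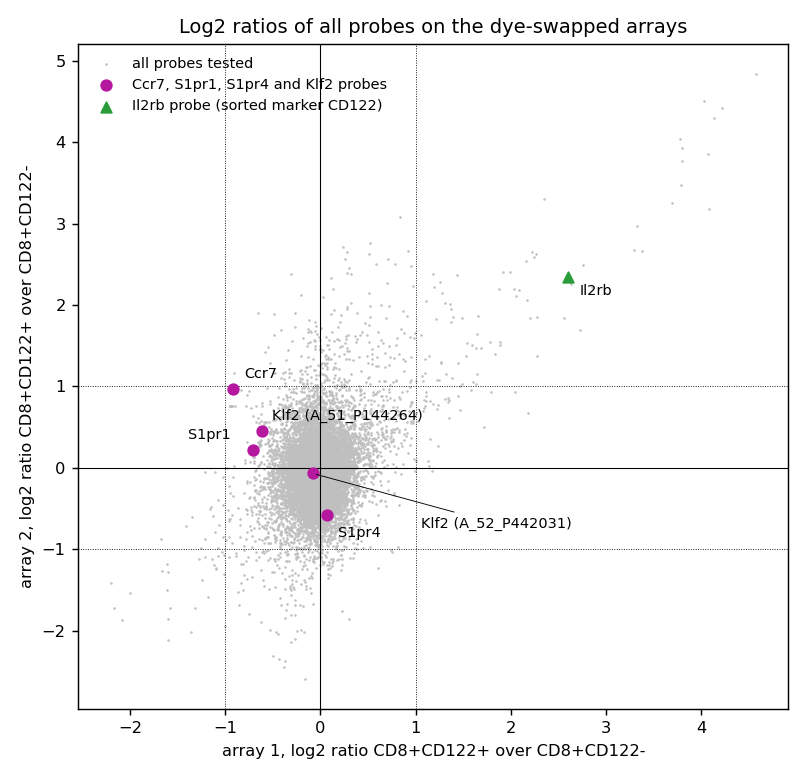
Log2 ratio of CD8+CD122+ over CD8+CD122- on array 1 (horizontal) and array 2 (vertical) for the 30794 probes tested (grey), the 5 homing and egress probes (magenta circles) and the Il2rb probe (green triangle), with dotted lines at 2-fold. Il2rb lies at 2.60 and 2.34, while Ccr7 lies at -0.92 and 0.97, in the corner where the arrays have opposite signs.

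The single-array values moved with the normalisation and the means hardly did. On dye-swapped arrays, a shift between the dyes that both arrays share cancels in the mean. Steady means therefore follow in part from the design and are no independent check. With each array centred on its median in place of loess, Ccr7 still changed sign, at -0.52 and 0.54, but S1pr1 was negative on both arrays, at -0.36 and -0.20. The Klf2 probes exchanged their pattern: A_51_P144264 gave 0.02 and -0.04, and A_52_P442031 gave 0.41 and -0.54. S1pr4 gave 0.21 and -0.81. The median of all probes stood at 0.07 and -0.10 under this setting. Over the settings that used both arrays, median centring included, the mean of Ccr7 stayed between 0.01 and 0.04. That of S1pr1 stayed between -0.28 and -0.24 and that of S1pr4 between -0.37 and -0.22. The mean of Klf2 A_51_P144264 ran from -0.09 to -0.01 and that of A_52_P442031 from -0.08 to -0.07. The smallest adjusted p of any member was 0.877.

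**Figure D3:**
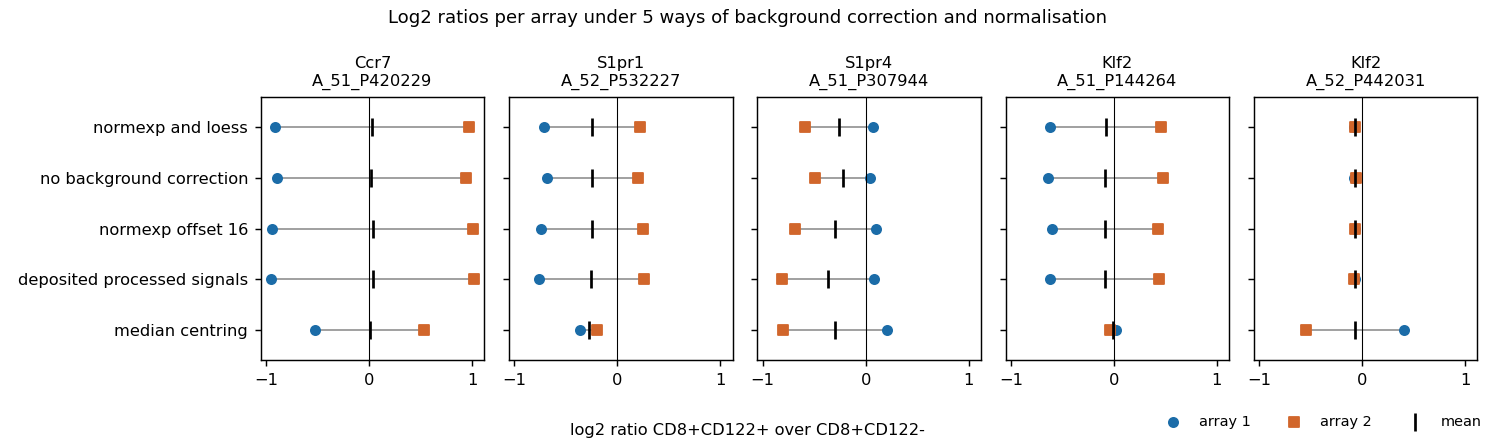
Log2 ratio of CD8+CD122+ over CD8+CD122- (horizontal axis) of each probe on array 1 (blue circles) and array 2 (orange squares), with the mean of the 2 as a black bar, under 5 ways of background correction and normalisation. The bars stay near the same place in every row, while median centring brings the arrays together for Klf2 A_51_P144264 (0.02 and -0.04) and draws them apart for Klf2 A_52_P442031 (0.41 and -0.54).

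The genes around the set were read from 7 lists, each gene by its brightest probe. Of 60 genes listed, 56 were tested, and Ccl21a, Ccl21b, Spns2 and Mfsd2b were not analysed here. Higher on both arrays in CD8+CD122+ cells were 17 of the 56, against 29.2% of all 21959 genes, and lower on both were 21, against 24.1%. At least 2-fold on both arrays 1 was higher (0.31% of all genes) and 0 were lower (0.105%). limma called 0 of the 56 at an adjusted p under 0.05, while 10 had an unadjusted p under 0.05, against 6.51% of all genes: 5 higher, against 2.91%, and 5 lower, against 3.6%. The lists were chosen with earlier results of these data known, so these shares are no independent measure of the lists. The median of the mean log2 ratios was -0.01, against 0.01 over all genes.

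Among the 8 genes of lymph node entry, 3 were higher on both arrays, 2 lower on both and 3 of opposite sign. Cxcr5, the receptor for the B cell follicle chemokine CXCL13, was the gene past 2-fold on both arrays, at log2 ratios of 1.36 and 2.01 (1.69 ± 0.46, SD, n = 2; 3.22-fold; limma adjusted p = 0.554). On the deposited processed signals its mean was 2.56 (limma adjusted p = 0.207). Cxcr4, the CXCL12 receptor, had 0.82 and 0.43 (adjusted p = 0.705), with a mean of 0.26 on its other probe. The integrin chains that pair into the gut-homing integrin lay on the other side: Itgb7 had -0.92 on each array (adjusted p = 0.336), and Itga4 had -1.41 and -0.72 (adjusted p = 0.696), while the means of the other 4 Itga4 probes ran from -0.41 to 0.04. Itgal, the alpha chain of LFA-1, had 0.16 and 0.21.

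Of the remaining sphingosine phosphate receptors, 1 was higher on both arrays, 1 lower on both and 1 of opposite sign. S1pr5, the egress receptor of NK cells, had 0.23 and 0.48 (0.36 ± 0.17, SD, n = 2; limma adjusted p = 0.777), and its mean was 0.66 with a normexp offset of 16 and 1.20 on the processed signals (adjusted p = 0.576). The S1pr5 probe was dim and dropped out under a stricter filter on dim probes. Whether its dimness bears on these larger means was not tested. S1pr2 was of opposite signs, and S1pr3 had -0.00 on each array, with a sign that turned under other settings. Of the 8 metabolic genes tested, 1 was higher on both arrays, 3 lower on both and 4 of opposite sign. Sphk2, a sphingosine kinase, had -0.08 and -0.30, and Plpp2, a lipid phosphate phosphatase, had -0.06 and -0.21. Of the CCR7 ligands, which stromal cells make, Ccl19 had -0.03 and -0.00 and Ccl21c had 0.06 and 0.03. The sign of Ccl21c turned on the processed signals. Its probe was dim as well, at a mean log2 intensity of 6.06, and also dropped out under the stricter filter.

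Among the 5 receptor brakes, Cd69, the surface antagonist of S1PR1, had log2 ratios of 0.67 and 1.06 (0.87 ± 0.28, SD, n = 2; 1.82-fold higher; limma adjusted p = 0.624). The other members were Arrb1, an arrestin, at -0.07 and -0.55, the receptor kinases Grk2 at -0.09 and -0.28 and Grk6 at -0.01 and -0.13, and Arrb2, of opposite signs. The mean was 0.04 on the other Arrb1 probe, -0.02 on each other Grk2 probe, and -0.12 and -0.13 on the other Grk6 probes. Among 14 genes of G protein and migration signalling, 3 were higher on both arrays, 6 lower on both and 5 of opposite sign. Coro1a, an actin regulator needed for T cell egress, had -0.33 and -0.53 (-0.43 ± 0.14, SD, n = 2; adjusted p = 0.692), and a mean of -0.46 on its other probe. Rassf5, which links RAP1 to integrin activation, had -0.21 and -0.44, and its partner kinase gene Stk4 had -0.15 and -0.19. Gna13, a G protein alpha chain, had 0.30 and 2.46, values further apart than those of Ccr7, and a mean of 0.13 on its other probe.

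Among 15 transcription genes, 6 were higher on both arrays, 5 lower on both and 4 of opposite sign. Klf10 had log2 ratios of 0.71 and 2.57 (1.64 ± 1.31, SD, n = 2; limma adjusted p = 0.834) and Klf4 had 0.29 and 1.63 (0.96 ± 0.95, SD, n = 2; adjusted p = 0.851), so both stood higher on array 2. Klf3, a KLF repressor, had -0.26 and -0.32 (adjusted p = 0.719), and Klf13 had -0.59 and -0.14. On their other probes the means were -0.11 for Klf3 and 0.01 for Klf13. Foxo1 had -0.40 and 0.15 on its brightest probe and -0.18 and -0.17 on the other, a split between probes like that of Klf2.

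**Figure D4:**
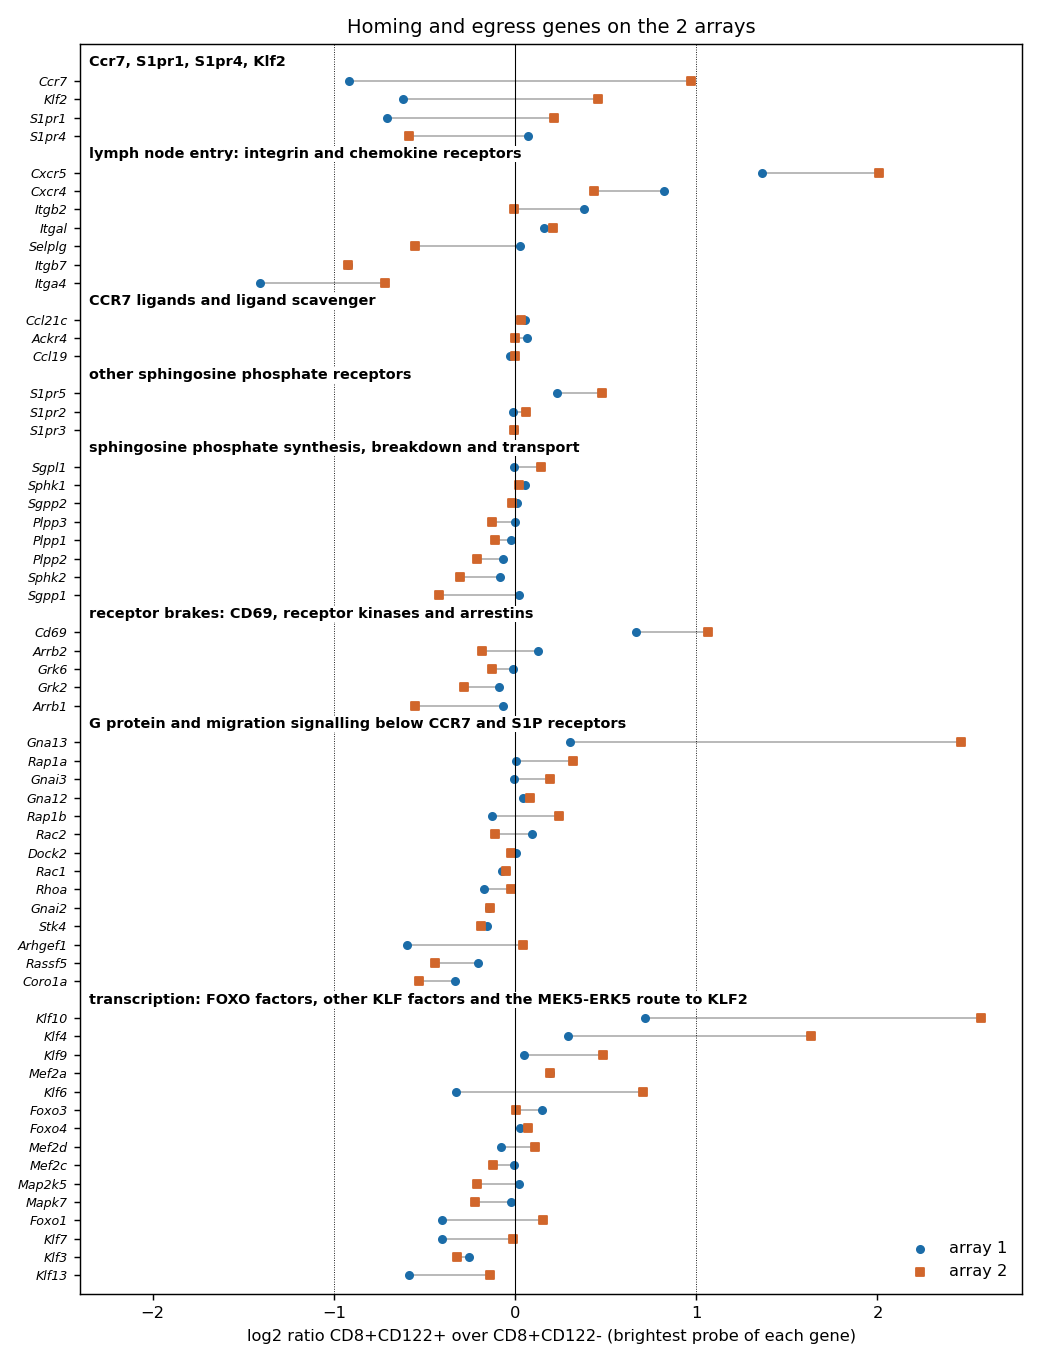
Log2 ratio of CD8+CD122+ over CD8+CD122- (horizontal axis) on array 1 (blue circles) and array 2 (orange squares) for the brightest probe of each gene shown, in rows grouped by list, with dotted lines at 2-fold. Cxcr5 (1.36 and 2.01) is the row with both points beyond a dotted line, and Ccr7 (-0.92 and 0.97) spans the zero line most widely.

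The genes most like each member were sought among the 3 named genes with the smallest Euclidean distance between the pairs of log2 ratios on the 2 arrays, among genes whose mean log2 intensity was within 1 of the member's. For Ccr7 they included Fam241a (distance 0.171) and Sf3b3 (0.435) among 1372 candidates. For S1pr1 they were Anxa7 (0.108), Myo1e (0.109) and Usp29 (0.12) among 2271. S1pr4 had closer neighbours, Gpr180 (0.0128), Jun (0.0176) and Wrap73 (0.022) among 9358, and Klf2, by A_51_P144264, had Btg1 (0.245), Pabpc1 (0.412) and Tmed9 (0.425) among 112. Likeness over 2 arrays includes what the dyes and the trials contribute. It was measured on the loess values alone. With median centring S1pr1 gave -0.36 and -0.20, and Klf2 A_51_P144264 gave 0.02 and -0.04.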

How the data were processed

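Splenic CD8+CD122+ and CD8+CD122- cells were compared on 2 dye-swapped arrays of 43790 spots, 2256 of them controls. Signals come from Agilent Feature Extraction, named in the submitters' processing notes, in version A.7.5.1 (array 1) and version 8.1.1.1 (array 2), per the file headers. Spot, background and processed intensity values are linear, and flags of another kind hold 0 or 1, per the file headers. Processed signals had background subtracted and dyes normalised (linear and LOWESS), per the file headers. The deposited log10 ratio is Cy5 over Cy3. The deposited value table holds the same log10 ratio, unchanged for array 2 and with opposite sign for array 1, so it runs CD8+CD122- over CD8+CD122+, opposite to here. Its columns have a median of 0, and its centring is unknown. The array's genome build is not given in the sources.

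From these, log2 ratios of CD8+CD122+ over CD8+CD122- were computed in limma 3.58.1 under R 4.3.3: normexp on mean signal and median local background (offset 50), loess within arrays with controls at weight 0, outlier-flagged spots left out, saturated spots kept, spots of a probe averaged. The offset shrinks ratios of dim probes. Probes entered if well above background in the same population on both arrays. One coefficient was fitted with lmFit and eBayes (1 residual degree of freedom, two-sided, Benjamini-Hochberg over all probes); a dye term would leave 0. The 2-fold rule asks for that size on each array with 1 sign and carries no p-value. Names came from a RefSeq table of GRCm38.p6 for 32016 probes (77.8%). The steps were tested on simulated data. Alternatives changed background correction, normalisation, filter, flags, variance model, array and source of values. Named were all member probes, Il2rb, Cd8a and Cd8b1, list genes past 2-fold on both arrays plus up to 4 others per list with 1 sign on both arrays, and the 3 nearest genes per member, of which some are not reported here; Foxo1, S1pr2, Arrb2 and Ncr1 were named after their values were seen. Members and lists were chosen with earlier results of these data known. The number of arrays limits the precision.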

Additional observations from a re-analysis of the deposited data

How the results depend on the processing

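For the 5 member probes the mean log2 ratio kept its sign in every alternative that used both arrays, and none was called. Changes of filter, saturation flag and variance model, and a scaling of intensities between arrays, leave these ratios as they were. The value table repeats the ratios of the processed signals. The sign could thus turn only with another background correction, offset or within-array normalisation, the processed signals or the averaging of probes. Of such changes, any shift between the dyes that both arrays share cancels in the mean. Leaving out an array leaves no residual degrees of freedom and gives values without a test: Ccr7 then ran from -0.92 to 0.97, S1pr1 from -0.71 to 0.22, S1pr4 from -0.59 to 0.07, Klf2 A_51_P144264 from -0.62 to 0.46 and Klf2 A_52_P442031 from -0.08 to -0.07, the ends being the single arrays. No paired analysis was possible because a replicate block, beyond the pairing that each array's ratio already holds, would leave no residual degrees of freedom. limma called 6 probes with a normexp offset of 16, against 0 otherwise with both arrays, and 0 of the members were among them. Probes at least 2-fold higher on both arrays numbered 78, and 120 with offset 16 and 199 with the processed signals or the value table; those 2-fold lower numbered 25, and 42, 85 and, with median centring, 16. A single array gave 109 to 336 probes higher and 42 to 219 lower. Pathway genes 2-fold lower numbered 0, and 1 (Itga4) with median centring. On a single array 1 to 5 were higher, and without array 1 these were Cd69, Cxcr5, Gna13, Klf10 and Klf4; 0 to 1 were lower, Itga4 without array 2. With both arrays, 3 of 27 named list genes turned sign: S1pr3 to 0.00608 with offset 16 and 0.00842 with the processed signals or the value table, and Ccl21c to -0.069 with either of these last. With the mean of all probes of a gene, S1pr3 gave 0.03 and Ccl19 0.01, while Itga4 gave -0.30 and Gna13 gave 0.75. Cxcr5 and S1pr5 moved to 2.56 and 1.20 on the processed signals or the value table. The cause was not tested.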
